A study of Mus musculus with 9 samples.

Results

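The transcripts described here are long non-coding RNAs (lncRNAs) of mouse heart that the deposited annotation places against, beside or inside a coding gene. A transcript was taken when at least 1 of its annotated relationships was natural antisense, intronic antisense, bidirectional or intron sense-overlapping, none was exon sense-overlapping, and its mean level over all libraries was at least 0.5 FPKM. FPKM is a level per transcript length and per library depth. Loci on the mitochondrial and Y chromosomes were left out. This gave 1177 of 31549 lncRNA transcripts: 481 natural antisense, 305 bidirectional, 192 intron sense-overlapping, 186 intronic antisense and 13 with mixed relationships. Another 7866 transcripts had a qualifying relationship and lay under the FPKM minimum. Wild type mouse hearts gave 3 libraries at each of 3 stages: embryonic at day 18 (E18), neonatal at 3 days (3d) and adult at 8 weeks (8w). The labels also call the material cardiocytes, and do not say whether each library came from its own animal or which sex it was, so p-values measure the spread between these libraries. The series set out to compare transcript levels between embryonic, neonatal and adult hearts.

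A natural antisense transcript is read from the strand opposite a coding gene and overlaps it. A bidirectional transcript starts close to the start of a coding gene and runs away from it, so that both can share a promoter. Intronic transcripts lie inside an intron, on either strand. Some such RNAs act on the gene beside them, as the antisense RNA Airn silences Igf2r on the paternal chromosome in mouse, while for many others no function is known.

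For 61 bidirectional pairs both starts could be placed from RefSeq promoter windows (GRCm38.p6). In 37 of these the starts pointed apart with 0 to 300 bases between them, in 9 the starts overlapped, and in 15 they lay farther apart. The median over all 61 was 113 bases, with overlapping starts counted as negative values. The 5 windows below show how short the shared stretch can be and are those of bidirectional pairs described further on. They were chosen after the values had been seen. Each runs 5′ to 3′ on the strand of the gene named first, ends with that gene's start base, and has the stretch between both starts in capitals. The Ttc17 window is chr2:94406689-94406939 (minus strand), that of 1810009A15Rik chr19:8888633-8888883 (plus), that of Mcam chr9:44134408-44134658 (plus), that of Mafg chr11:120633547-120633797 (minus) and that of Snhg1 chr19:8723237-8723487 (plus). The start of Slc3a2 beside Snhg1 was taken from GENCODE vM21, the others from RefSeq. By its RefSeq start Slc3a2 lies 9590 bases from Snhg1, so this pair is counted among the 15 above.
Ttc17 (with 2810002D19Rik): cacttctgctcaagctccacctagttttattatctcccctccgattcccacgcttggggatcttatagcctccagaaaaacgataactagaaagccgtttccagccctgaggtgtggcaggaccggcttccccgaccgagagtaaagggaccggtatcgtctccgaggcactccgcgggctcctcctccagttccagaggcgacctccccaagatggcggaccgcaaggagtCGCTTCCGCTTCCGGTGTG
1810009A15Rik (with 5730408K05Rik): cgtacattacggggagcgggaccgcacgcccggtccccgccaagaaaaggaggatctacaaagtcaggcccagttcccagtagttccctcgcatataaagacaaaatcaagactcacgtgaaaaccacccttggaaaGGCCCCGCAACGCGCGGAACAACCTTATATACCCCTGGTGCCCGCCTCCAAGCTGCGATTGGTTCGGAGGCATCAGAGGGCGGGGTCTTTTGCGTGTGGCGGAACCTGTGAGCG
Mcam (with Gm10687): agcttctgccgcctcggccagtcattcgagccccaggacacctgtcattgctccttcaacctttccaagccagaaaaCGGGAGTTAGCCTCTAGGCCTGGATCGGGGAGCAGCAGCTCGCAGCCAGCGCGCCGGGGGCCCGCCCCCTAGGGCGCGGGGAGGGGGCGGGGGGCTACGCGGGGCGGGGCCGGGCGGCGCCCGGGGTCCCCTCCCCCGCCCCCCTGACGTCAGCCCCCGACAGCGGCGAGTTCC
Mafg (with Gm17586): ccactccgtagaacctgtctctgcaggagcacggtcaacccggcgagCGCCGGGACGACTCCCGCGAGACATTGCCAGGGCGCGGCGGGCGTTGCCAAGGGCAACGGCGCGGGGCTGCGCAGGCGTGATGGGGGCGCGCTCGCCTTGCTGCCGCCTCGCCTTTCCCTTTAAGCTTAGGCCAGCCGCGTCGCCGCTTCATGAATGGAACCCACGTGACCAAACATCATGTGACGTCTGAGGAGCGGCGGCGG
Snhg1 (with Slc3a2): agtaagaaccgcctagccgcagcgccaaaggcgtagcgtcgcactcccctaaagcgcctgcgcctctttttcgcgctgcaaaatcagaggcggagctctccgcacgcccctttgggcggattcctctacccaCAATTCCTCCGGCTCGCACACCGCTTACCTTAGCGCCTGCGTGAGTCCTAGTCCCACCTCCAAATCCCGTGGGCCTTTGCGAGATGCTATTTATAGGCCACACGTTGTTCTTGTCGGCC

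The capitals span 18 bases from start to start in the pair Ttc17 and 2810002D19Rik, 113 in 1810009A15Rik and 5730408K05Rik, 173 in Mcam and Gm10687, 203 in Mafg and Gm17586, and 118 in Snhg1 and Slc3a2. They hold 3, 11, 22, 28 and 9 CG dinucleotides in that order. The ETS core CTTCCGG stands between the starts of Ttc17 and 2810002D19Rik, an E box CACGTG between those of Mafg and Gm17586, and GC boxes GGGCGG, also as CCGCCC, between those of Mcam and Gm10687. A GC box GGGCGG and a CCAAT box read as ATTGG stand between those of 1810009A15Rik and 5730408K05Rik, and the letters TTTATA between those of Snhg1 and Slc3a2. Of 176 promoter windows of bidirectional partners, searched on both strands, 76.7% held GGGCGG, against 66.0% of 8875 windows of tested coding genes and 35.9% of all 27025 windows. The letters TATAAA were in 3.98% of the partner windows, 6.76% of those of tested coding genes and 14.2% of all. CCGGAAG was in 22.2%, 18.8% and 9.12% of the same windows, and the median number of CG dinucleotides was 27.5, 21 and 7. CCAAT was in 35.2%, 39.1% and 37.9%, GCATGC in 10.2%, 10.3% and 7.94%, and CACGTG in 9.66%, 10.4% and 7.24%. A match describes the letters of a window and shows no bound factor.

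Most of these lncRNAs were rare. Their median level was 1.22 FPKM, which rested on a median of 24.2 estimated fragments a library, and 282 of the 1177 had fewer than 10. Intron sense-overlapping transcripts had the highest median, 2.15 FPKM, against 1.16 for natural antisense, 1.13 for bidirectional and 1.12 for intronic antisense transcripts. In the 1030 pairs with a tested coding partner the lncRNA stood at a median of 9.61% of its partner's FPKM, and it was above its partner in 51. The most abundant were short bidirectional RNAs of general cell machinery: Rmrp, the RNA of the enzyme RNase MRP, averaged 6882 ± 882 FPKM in E18 hearts, 4919 ± 681 FPKM in 3d hearts and 4024 ± 624 FPKM in 8w hearts (SD, n = 3 each). Rpph1, the RNA of the tRNA-processing enzyme RNase P, averaged 5297 ± 1350, 6234 ± 3327 and 2506 ± 223 FPKM at the same stages. Its 3d libraries had 10020, 4918 and 3766 FPKM, so that replicate 1 alone made 3d the highest mean. Rmrp and Rpph1 each have a second entry in the table that shares their reads, so their levels are uncertain. In all, 75 names covered 197 of the 1177 transcripts. Just inside the minimum stood Gm13563, antisense to Sdccag3, at 0.5003 FPKM, and just outside it Gm15991, antisense to Psd3, at 0.4996. AK043575, antisense to the adult myosin gene Myh6, fell outside with 0.418 FPKM.

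The libraries held 12470101 to 13628302 estimated fragments, coding genes and lncRNAs together, of which 0.727% to 1.36% fell on these transcripts. The highest share was in 3d replicate 1, and without the entries of Xist, the RNA of X inactivation, it was still 0.969%, against 0.783% and 0.817% in the other 3d libraries. The summed FPKM of 10 cardiomyocyte markers was 14330 to 14890 at E18, 15870 to 17030 at 3d and 28190 to 29900 at 8w. Dividing-cell markers (Mki67 and Top2a) summed to 147 to 172, 71.1 to 93.8 and 2.59 to 5.03 FPKM, macrophage markers to 11.1 to 12.7, 12.4 to 19.6 and 39.8 to 47.9, and erythroid markers to 305 to 428, 145 to 330 and 68.6 to 142. Endothelial sums were 301 to 328, 309 to 396 and 273 to 330 FPKM, fibroblast sums 254 to 290, 224 to 351 and 336 to 449, and epicardial sums 17.0 to 25.6, 9.46 to 12.3 and 3.87 to 4.96. All 4 lymphocyte markers were under 0.1 FPKM on average. Lung epithelium markers stood at 56.8, 32.2 and 102.5 FPKM in 3d replicate 2, 3d replicate 3 and 8w replicate 2, and at or under 0.460 in the other libraries. In whole hearts fewer cells of a type and less RNA per cell cannot be told apart, and the part of these shifts in the results below was not tested.

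Between 3d and E18 hearts few of these lncRNAs were called. By limma on log2(FPKM + 1) at an adjusted p under 0.05, 21 were higher and 22 lower at 3d, or 3.65% of the 1177. A transcript that was not called is not shown to be unchanged. Of all 4007 tested lncRNA transcripts 3.87% were called, 1.65% as higher and 2.22% as lower. At an unadjusted p under 0.05 there were 242 of the 1177, and 850 of all 4007. With edgeR on the estimated fragments 16 were higher and 5 lower (1.78%), against 54 and 33 of all 4007 (2.17%). The count moved with single libraries: it was 3, 4 and 6 without E18 replicate 1, 2 and 3, 23, 9 and 5 without 3d replicate 1, 2 and 3, and 21 without 8w replicate 2. Without the 3 libraries with lung markers it was 10, from a fit with 1 library at 3d that is assumed to vary like the other stages.

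AK018440 is antisense to Abi2, which encodes a subunit of the actin-regulating WAVE complex. It had 24.1, 23.4 and 28.5 FPKM in 3d hearts, against 7.72, 8.95 and 8.4 FPKM in E18 hearts, and 6.90, 9.04 and 6.79 FPKM in 8w hearts. The 3d libraries stood above all others, and the log2 difference of 3d over E18 was 1.49 ± 0.145 (SE, limma adjusted p = 0.00336). Abi2 differed by -0.51 ± 0.111 on the same scale (limma adjusted p = 0.00775), so the pair moved apart by 2.00 ± 0.171 (limma adjusted p = 0.00193).

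D830005E20Rik lies antisense in an intron of Trdn, which encodes triadin, an anchor of the calcium release complex in heart muscle. It had 45.3, 32.2 and 35.7 FPKM in 3d hearts, against 11.2, 14.6 and 12.9 FPKM in E18 hearts, a log2 difference of 1.47 ± 0.169 (limma adjusted p = 0.00683). It stayed at 36.3, 41.8 and 45.0 FPKM in 8w hearts. Trdn itself averaged 26.5 FPKM at 3d and 26.4 FPKM at E18, and was higher at 8w than at 3d, by 0.53 ± 0.0851 (limma adjusted p = 0.000322). The lncRNA was thus high in all 3d and 8w libraries, while the coding gene differed from E18 in the 8w libraries alone by the test.

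2310050B05Rik is antisense to Nmrk2, a nicotinamide riboside kinase gene expressed in muscle, and lies at chr10:81194683-81209161 in GENCODE vM21. It had 23.2, 14.2 and 16.3 FPKM in 3d hearts, against 8.43, 7.24 and 7.81 FPKM in E18 hearts (log2 difference 1.07 ± 0.190, limma adjusted p = 0.0269). Nmrk2 went the other way, at -1.24 ± 0.231 (limma adjusted p = 0.00395), and the pair difference was 2.31 ± 0.387 (limma adjusted p = 0.0456). The call of the lncRNA was lost in 7 of 22 alternatives and that of the pair in 12 of 20. AK051857, antisense to the lipid-binding protein gene Osbpl1a, averaged 1.47 ± 0.328 FPKM in E18 hearts, 4.47 ± 0.265 FPKM in 3d hearts and 0.644 ± 0.111 FPKM in 8w hearts, with the peak at 3d (SD, n = 3 each).

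Among the transcripts that were lower at 3d, Toporsos, antisense to the ubiquitin ligase gene Topors, had 16.9, 21.6 and 11.2 FPKM, against 45.7, 32.7 and 42.4 FPKM at E18. It was back at 38.0, 41.3 and 50.0 FPKM in 8w hearts. The log2 difference of 3d over E18 was -1.27 ± 0.242 (limma adjusted p = 0.0312), a call lost in 12 of 22 alternatives. The bidirectional transcript 2810002D19Rik, whose start lies 18 bases from that of Ttc17 in the window above, had 2.33, 2.96 and 2.41 FPKM at 3d, against 6.21, 6.42 and 5.40 FPKM at E18 (log2 difference -0.98 ± 0.139, limma adjusted p = 0.0168). Ttc17 differed by -0.21 ± 0.142 (limma adjusted p = 0.312), and the pair difference, -0.77 ± 0.248, was not called (limma adjusted p = 0.146). AK142264, antisense to Kcnj6, had 1.14 ± 0.257 FPKM at 3d and 4.03 ± 0.669 FPKM at E18, and 0.349 ± 0.241 at 8w, and its 3d over E18 call was lost in 9 of 22 alternatives. It stayed low after birth, in contrast to Toporsos and 2810002D19Rik, which were low at 3d alone.

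**Figure D1:**
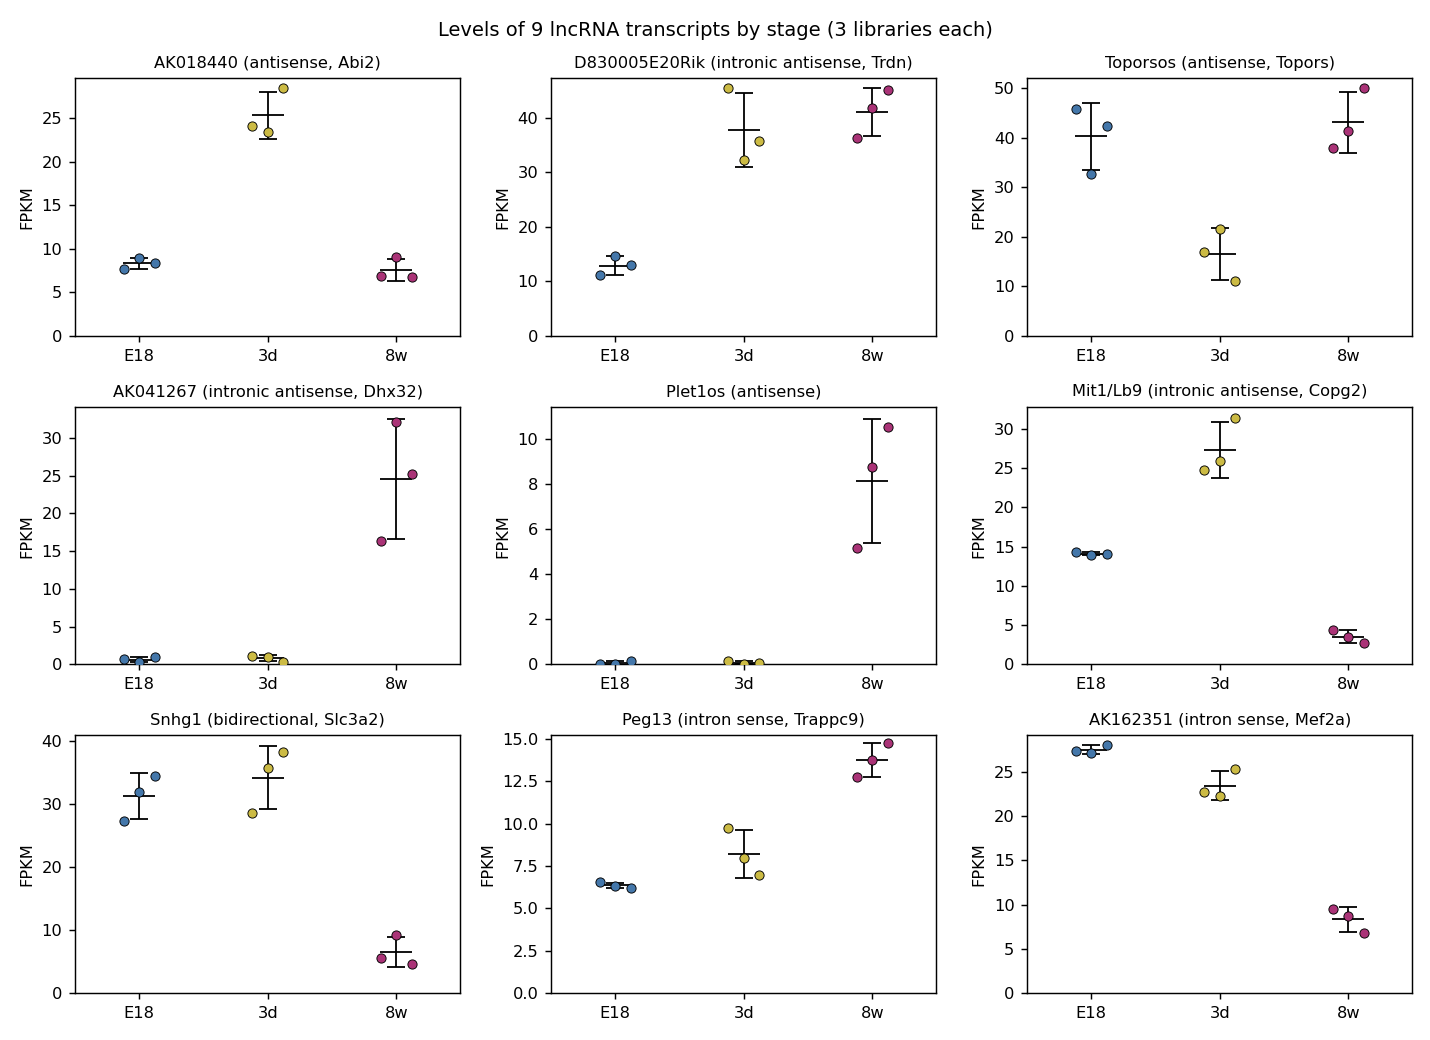
FPKM of 9 lncRNA transcripts at E18, 3d and 8w, with a point for each library and bars for the mean and SD of 3 libraries. AK018440 stood at 23.4 to 28.5 FPKM at 3d and at or under 9.04 elsewhere, while AK041267 and Plet1os were near 0 until 8w.

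Between 8w and 3d hearts 389 of the 1177 were called by limma, 69 higher and 320 lower at 8w. That is 33.1%, against 34.7% of all tested lncRNAs (7.49% higher and 27.2% lower). The excess of lower calls moved with the scaling: the median log2 difference of all tested lncRNAs was -0.31 and that of these transcripts -0.29, and in the same limma fit after median centring 139 were higher and 141 lower. With edgeR on the estimated fragments, a different model, 115 were higher and 137 lower (21.4%, against 23.9% of all tested lncRNAs). DESeq2 gave 127 higher and 139 lower. Without the 3 libraries with lung markers, which leaves 1 library at 3d assumed to vary like the other stages, limma called 192. Between 8w and E18, 345 were called, 69 higher and 276 lower. That is 29.3%, against 34% of all tested lncRNAs (6.74% higher and 27.3% lower), with a median of -0.27 against -0.32 for all. After median centring 167 were higher and 138 lower in this comparison. There edgeR called 144 higher and 118 lower (22.3%, against 24.3% of all tested lncRNAs). Both comparisons share the 8w libraries. Median centring put the median log2 difference of all tested lncRNAs at -0.0057 in 8w over 3d and 0.000443 in 8w over E18 hearts. Those of these transcripts were then 0.00732 and 0.0594. Shares called over all tested lncRNAs after median centring, with DESeq2 and without the lung-marker libraries are not given here. The counts under these settings are therefore not shown to be particular to these transcripts.

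AK041267, in an intron of the helicase gene Dhx32 and antisense to it, had the largest rise among those named. It had 16.3, 32.1 and 25.3 FPKM in 8w hearts, against 1.08, 1.01 and 0.376 FPKM in 3d hearts, and 0.679, 0.275 and 0.988 FPKM in E18 hearts. The 8w libraries stood far above all the others, with 133, 261 and 208 estimated fragments against 8.80 or fewer. Its log2 difference of 8w over 3d was 3.79 ± 0.284 (limma adjusted p = 7.76e-05), while Dhx32 differed by 0.18 ± 0.117 (limma adjusted p = 0.222), so that the pair difference was 3.61 ± 0.345 (limma adjusted p = 0.00046).

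Plet1os, an antisense transcript named for the surface protein gene Plet1, had 5.16, 8.78 and 10.5 FPKM in 8w hearts. It had 0.155, 0 and 0.0719 FPKM in 3d hearts and was listed at 0 in 2 of the E18 libraries (0.160 FPKM in the other). Its log2 difference of 8w over 3d was 3.04 ± 0.222 (limma adjusted p = 7.12e-05). The calls of AK041267 and Plet1os held in every alternative that was run. Those alternatives used the same values by which both were picked as large rises, so they are no independent support. Plet1os averaged 0.053 FPKM at E18 and 0.076 FPKM at 3d, and passed the FPKM minimum through its 8w libraries alone.

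9330158H04Rik, at chr6:36387379-36388288 and antisense to Chrm2, the muscarinic acetylcholine receptor gene of the heart, had 11.4, 7.36 and 15.4 FPKM at 8w. It had 0.877, 1.92 and 1.76 FPKM at 3d. The log2 difference was 2.27 ± 0.263 (limma adjusted p = 0.000512), larger than the rise of Chrm2, 0.81 ± 0.106 (limma adjusted p = 7.69e-05), by 1.46 ± 0.258 (limma adjusted p = 0.00631). Gm15543, in an intron of Casc1 and antisense to it, averaged 66.5 ± 9.38 FPKM at 8w, against 19 ± 4.91 at E18 and 17.0 ± 3.71 at 3d. AK085761, antisense to Itfg1, averaged 9.70 ± 0.862 FPKM at 8w, against 2.09 ± 0.158 at E18. Of the intron sense-overlapping transcripts, Peg13, a paternally expressed RNA in an intron of Trappc9, had 12.8, 13.8 and 14.8 FPKM at 8w, against 6.54, 6.30 and 6.21 FPKM at E18 (log2 difference 1.01 ± 0.137, limma adjusted p = 0.000896).

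Bidirectional AK149722 rose together with its partner Bcl6, a transcriptional repressor gene. It had 4.41, 7.29 and 6.21 FPKM at 8w, against 1.83, 1.58 and 1.86 FPKM at 3d (log2 difference 1.32 ± 0.164, limma adjusted p = 0.000708). Bcl6 rose by 2.36 ± 0.126 on that scale (limma adjusted p = 1.26e-07). Gdap10, within Nampt (the rate-limiting gene of NAD salvage) on the same strand, averaged 8.34 ± 1.48 FPKM at 8w and 4.60 ± 0.359 FPKM at 3d, beside a rise of Nampt by 1.77 ± 0.156 (limma adjusted p = 4.47e-06).

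Among the largest falls were a pair of RNAs of 1 locus. Mit1/Lb9 and AF177020, which lie antisense in an intron of Copg2 on chromosome 6, behaved alike. Mit1/Lb9 had 4.37, 3.51 and 2.75 FPKM at 8w, against 24.8, 25.9 and 31.4 FPKM at 3d, with 14.3, 14 and 14 FPKM at E18. AF177020 averaged 3.49 ± 2.42 FPKM at 8w, against 25.3 ± 3.96 at 3d. Both stood highest at 3d and lowest at 8w, with log2 differences of 8w over 3d of -2.65 ± 0.159 for Mit1/Lb9 (limma adjusted p = 2.87e-05) and -2.73 ± 0.450 for AF177020 (limma adjusted p = 0.00266). Copg2, a coat protein gene, fell by 0.42 ± 0.108 (limma adjusted p = 0.00668).

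Nespos, antisense to the imprinted Gnas locus, had 0.253, 0.0838 and 0 FPKM at 8w, against 3.88, 4.74 and 4.51 FPKM at 3d (log2 difference -2.28 ± 0.141, limma adjusted p = 3.22e-05). Gnas, the stimulatory G protein gene, was 0.45 ± 0.155 higher at 8w than at 3d (limma adjusted p = 0.0295). It differed by only 0.02 ± 0.155 between 8w and E18 (limma adjusted p = 0.906). In 3d replicates 1, 2 and 3 Gnas had 170.5, 131.6 and 107 FPKM, and replicates 2 and 3 are those with lung markers. Airn, antisense to the growth factor clearance receptor gene Igf2r at chr17:12741374-12815557, had 20.3, 23.1 and 16 FPKM at 8w, against 85.3, 70.2 and 83.9 FPKM at E18. It fell by 1.97 ± 0.198 (limma adjusted p = 0.0002), beside a fall of Igf2r by 2.61 ± 0.0978 (limma adjusted p = 6.37e-09). Airn has other entries in the table with up to 12.1 FPKM, between which its reads may be split. In 8w over E18 hearts those entries differed by -1.75, -0.55, -0.33 and 0.14 on the log2 scale. None of them was called (limma adjusted p from 0.187 to 0.764).

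Dnm3os, in an intron of Dnm3 at chr1:162217623-162225548, is the host transcript of the miR-199a and miR-214 microRNAs. It had 0.881, 1.19 and 1.06 FPKM at 8w, against 5.91, 6.18 and 6.15 FPKM at 3d (log2 difference -1.79 ± 0.130, limma adjusted p = 7.05e-05). Dnm3 differed by -0.45 ± 0.230 (limma adjusted p = 0.118), and the pair difference was -1.35 ± 0.282 (limma adjusted p = 0.0128). Igf2os, opposite the fetal growth factor gene Igf2, had 0.0226, 0.0872 and 0.185 FPKM at 8w, against 3.09, 2.37 and 2.59 FPKM at E18. It fell by 1.74 ± 0.126 (limma adjusted p = 3.38e-05), but Igf2 fell by 5.59 ± 0.182 (limma adjusted p = 2.67e-09). The fall of a transcript near 0 is understated on this scale.

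The bidirectional Snhg1, a host of small nucleolar RNAs, had 5.53, 9.18 and 4.64 FPKM at 8w, against 28.6, 35.7 and 38.2 FPKM at 3d (log2 difference -2.27 ± 0.230, limma adjusted p = 0.000281). Slc3a2, an amino acid transporter subunit gene that starts 118 bases away by its GENCODE start and 9590 by its RefSeq start, differed by 0.35 ± 0.147 (limma adjusted p = 0.0612), and the pair difference of -2.63 ± 0.312 was called (limma adjusted p = 0.0011). The intron sense-overlapping AK162351, within the muscle transcription factor gene Mef2a, had 9.52, 8.69 and 6.78 FPKM at 8w, against 22.7, 22.3 and 25.3 FPKM at 3d. It fell by 1.40 ± 0.138 (limma adjusted p = 0.000254), more than Mef2a, which fell by 0.54 ± 0.0880 (limma adjusted p = 0.000353), with a pair difference of -0.86 ± 0.178 (limma adjusted p = 0.0126). Whether reads of unspliced coding RNA are counted in such sense transcripts was not tested.

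**Figure D2:**
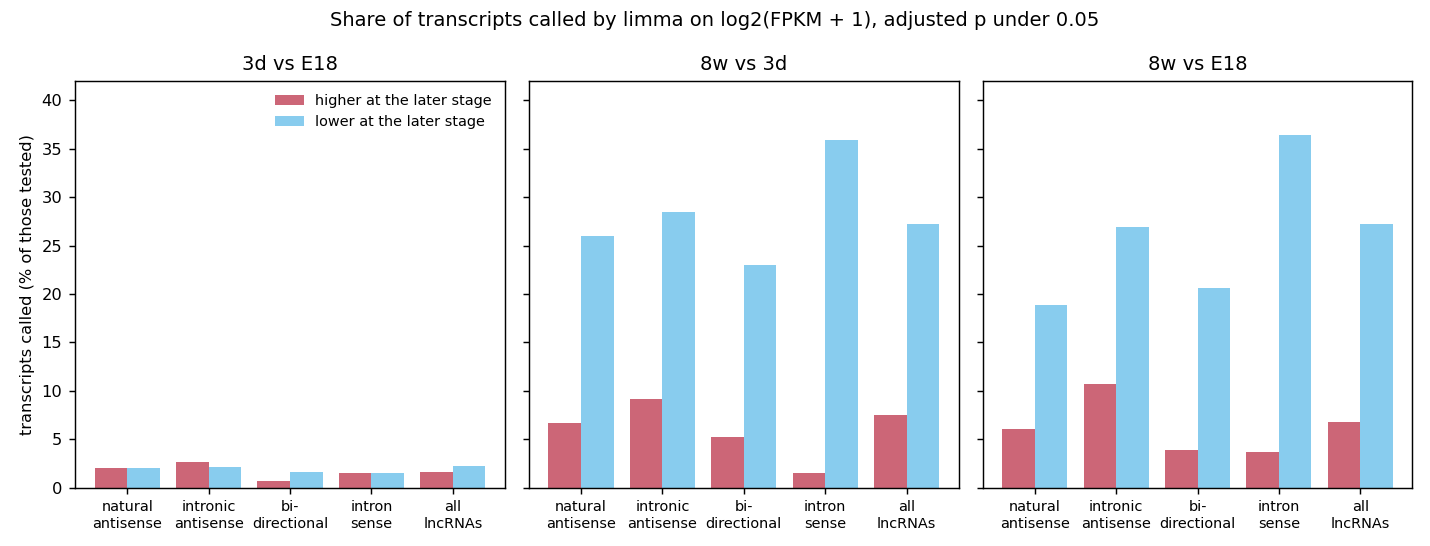
Share of tested transcripts called higher (red) or lower (blue) at the later stage, by class and for all tested lncRNAs, in 3 comparisons by limma. In 8w over E18 hearts 36.5% of intron sense-overlapping transcripts were lower, against 18.9% of natural antisense transcripts and 27.3% of all. With edgeR natural antisense, intronic antisense and bidirectional transcripts had more higher than lower calls in that comparison.

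The counts of falls varied by class. In 8w over 3d hearts 3 intron sense-overlapping transcripts were higher and 69 lower of 192, 17 and 53 of 186 intronic antisense, 16 and 70 of 305 bidirectional, and 32 and 125 of 481 natural antisense transcripts. Median log2 differences in the same order were -0.50, -0.30, -0.23 and -0.26, beside -0.31 for all tested lncRNAs. With edgeR, 12 intron sense-overlapping transcripts were higher and 32 lower, natural antisense transcripts were split 54 and 53, bidirectional 28 and 26, and intronic antisense 20 and 24. Over all 4007 tested lncRNAs edgeR called 460 higher and 498 lower. In 8w over E18 hearts the direction depended on the method. Limma called 29 natural antisense transcripts higher and 91 lower, and edgeR 63 and 38. For intronic antisense transcripts limma gave 20 and 50, and edgeR 37 and 20. For bidirectional they gave 12 and 63, and 28 and 26, and for intron sense-overlapping 7 and 70, and 14 and 32. Over all 4007 edgeR called 474 higher and 499 lower there. Over all 1177 the mean level was highest at E18 in 36.6%, at 3d in 43.2% and at 8w in 20.2%, against 41.7%, 37.5% and 20.8% of all tested lncRNAs. Of the intron sense-overlapping transcripts 50.5% were highest at E18. These are counts by class, and no difference between classes was tested. More calls were made at higher depth: in 8w over 3d hearts 15.2% of transcripts under 10 fragments a library were called and 54.9% of those at 100 or more.

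The coding partners were called more often than the lncRNAs. They also stood at higher levels, and the part of level and depth in this was not tested. Of 810 tested partners limma called 49 higher and 183 lower (28.6%) in 3d over E18 hearts. In 8w over 3d it called 157 and 330 (60.1%), and in 8w over E18 135 and 410 (67.3%). Of all coding genes tested 26.4% were called in the first comparison (4.95% higher and 21.5% lower), 58.5% in the second (21.4% and 37.1%) and 65.1% in the third (17.8% and 47.3%). Differences in the ratio of lncRNA to partner were called in 15, 268 and 255 of 1030 pairs: 14 higher and 1 lower, 100 and 168, and 144 and 111. Of all 2180 lncRNA and partner pairs 1.1% were called in the first comparison (0.872% higher and 0.229% lower), 20.6% in the second (8.12% and 12.4%) and 18% in the third (9.54% and 8.44%). By class, 8w over 3d differences were called in 32.6% of natural antisense, 30.6% of intronic antisense, 19.5% of bidirectional and 18.6% of intron sense-overlapping pairs. These counts depended on the pseudocount, and fell to 1, 177 and 160 with 0.1 FPKM in place of 1. Without E18 replicate 3 the 8w over E18 count was 152, and without 8w replicate 3 it was 164. In 8w over 3d it was 176 without 8w replicate 3, and 102 without the 3 libraries with lung markers, again with 1 library at 3d and its spread taken from the other stages.

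Across pairs the Pearson correlation of the log2 differences of 8w over E18 was 0.12 for 389 natural antisense, 0.29 for 144 intronic antisense, 0.32 for 298 bidirectional and 0.45 for 183 intron sense-overlapping pairs. It was 0.48 for 1150 exon sense-overlapping pairs, which share exons and were not part of the set. In 3d over E18 hearts it was 0.015 for natural antisense and -0.024 for intronic antisense pairs, and no difference between classes was tested. These describe genes measured in the same libraries, some of which stand in several pairs. Where both were called in 8w over E18 hearts, both were higher in 23 and both lower in 152 of 1030 pairs. The lncRNA was higher and its partner lower in 17, and the reverse held in 20. In the 1150 exon sense-overlapping pairs the same counts were 43, 207, 8 and 9. Of all tested lncRNAs 27.3% were called lower, a share that moved with the scaling, and of all coding genes 47.3%. How many pairs would be lower together by these shares alone was not tested. In 8w over 3d hearts both were higher in 27 and both lower in 146 of the 1030 pairs. The lncRNA alone was the higher one in 11 and the partner alone in 40. The same counts were 47, 154, 13 and 28 in the exon sense-overlapping pairs. In 3d over E18 hearts they were 0, 9, 8 and 0 in the 1030 pairs, and 9, 16, 1 and 0 in the exon sense-overlapping pairs. Because the strand setting is unknown, reads of opposite transcripts that overlap cannot be told apart.

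**Figure D3:**
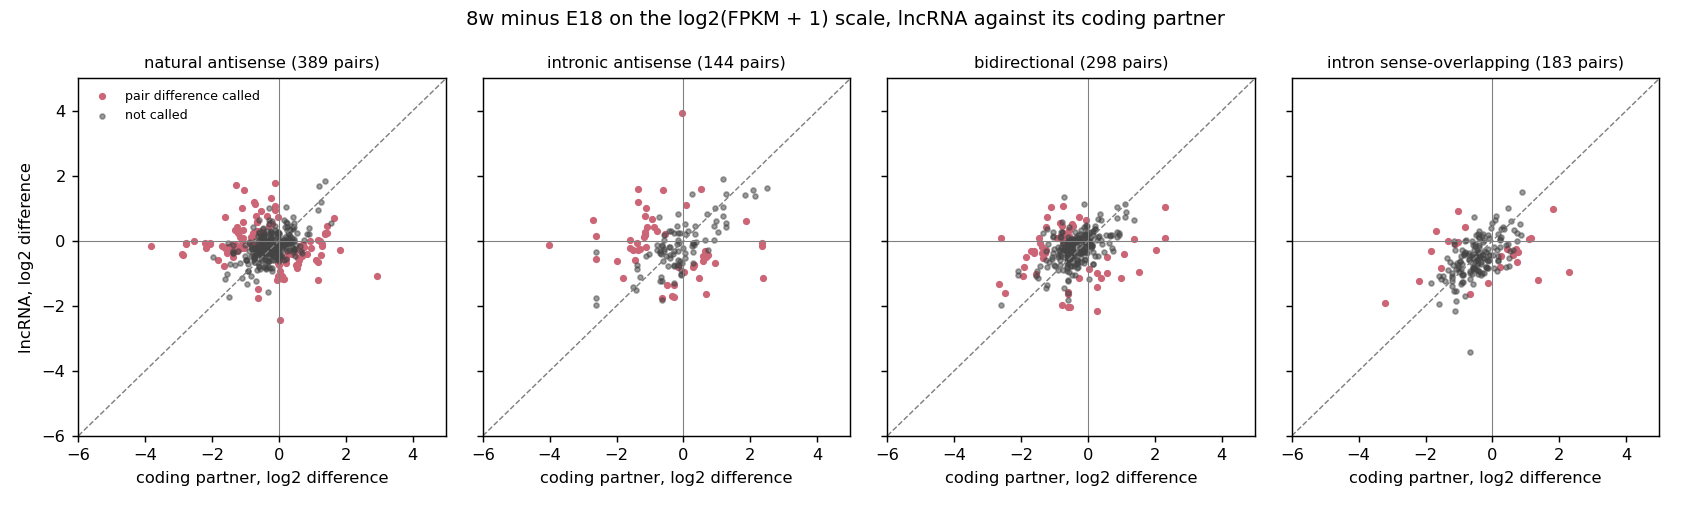
Log2 difference of 8w over E18 hearts for each lncRNA (vertical) against its coding partner (horizontal) in 4 classes, on the log2(FPKM + 1) scale, with equal change on the dashed line and called pair differences in red. The correlation was 0.12 in natural antisense and 0.45 in intron sense-overlapping pairs.

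Some pairs moved in opposite directions. Gm26722, at chr4:129309081-129318443, is antisense to Rbbp4, a chromatin protein gene. It had 5.35, 7.28 and 4.30 FPKM at 8w, against 0.757, 1.2 and 0.957 FPKM at E18. Rbbp4 fell by 1.27 ± 0.106 (limma adjusted p = 1.93e-06) while Gm26722 rose by 1.73 ± 0.206 (limma adjusted p = 0.000452), and the pair difference was 3.00 ± 0.208 (limma adjusted p = 0.000102). Gm12002, in an intron of the actin nucleator gene Cobl at chr11:12314514-12337130, had 8.24, 8.04 and 8.12 FPKM at 8w, against 1.62, 2.84 and 1.81 FPKM at E18. Cobl fell by 1.35 ± 0.126 as Gm12002 rose by 1.58 ± 0.209 (limma adjusted p = 4.54e-06 and 0.000767).

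1110054M08Rik, antisense to the focal adhesion gene Lpp, had 3.85, 4.15 and 3.65 FPKM at 8w, while at 3d it had 0.174 FPKM in replicate 1 and next to 0 in the others. Lpp was lower at 8w by 0.85 ± 0.0973 on the log2 scale, and the pair difference was 3.06 ± 0.219 (limma adjusted p = 0.00018). In the other direction, XLOC_008917, inside the splicing regulator gene Rbfox1 on the same strand, had 0.322, 0.358 and 0.375 FPKM at 8w, against 3.06, 2.4 and 2.65 FPKM at 3d. It fell by 1.45 ± 0.113 (limma adjusted p = 9.59e-05) as Rbfox1 rose by 1.46 ± 0.123 (limma adjusted p = 3.31e-06). XLOC_021814, intronic antisense to both Folr2 and Inppl1, had 0.817, 0.473 and 0.604 FPKM at 8w, against 4.52, 2.52 and 4.01 FPKM at 3d. Folr2, a folate receptor gene of resident macrophages, rose by 2.17 ± 0.182 (limma adjusted p = 3.09e-06) beside the macrophage sums given above, and the part of those cells in it was not tested.

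**Figure D4:**
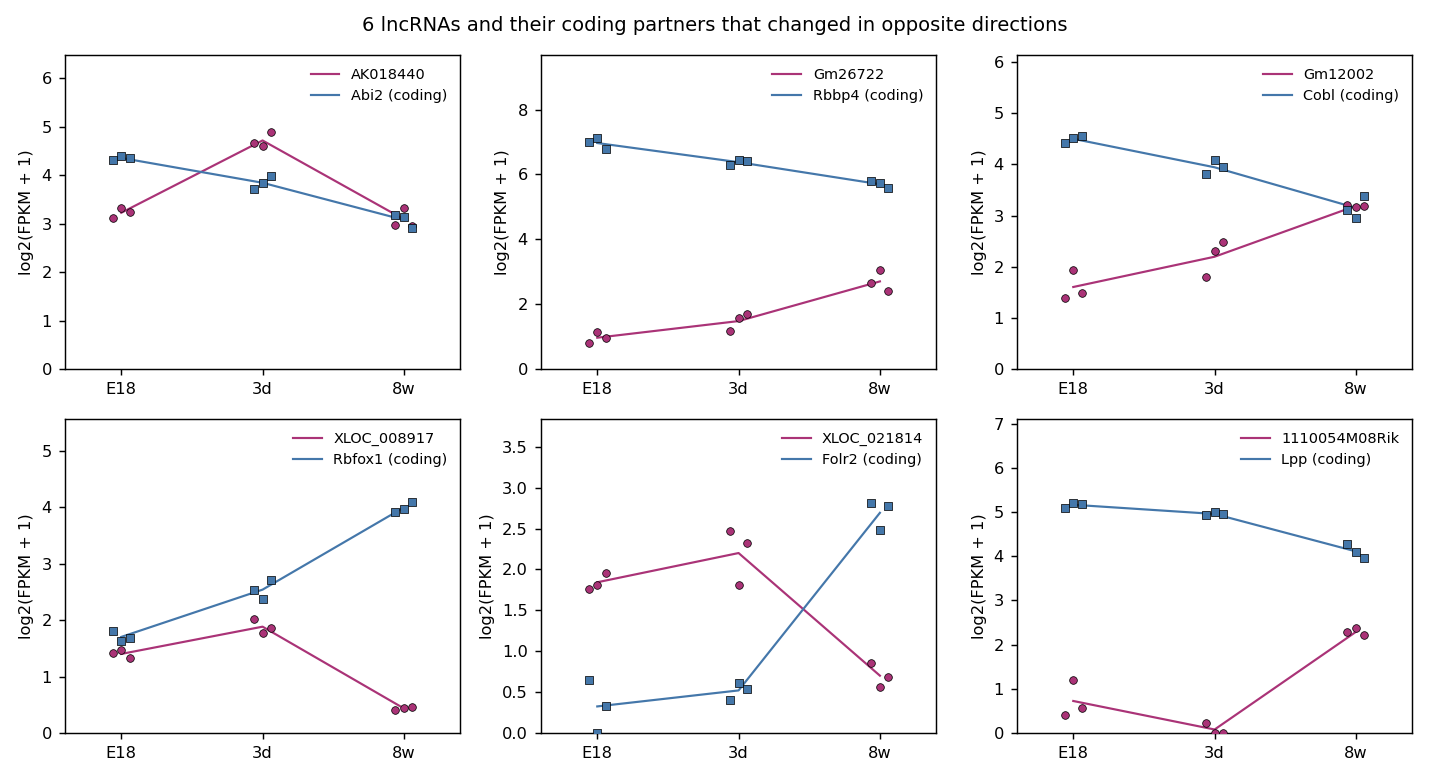
Levels of 6 lncRNAs (purple circles) and their coding partners (blue squares) as log2(FPKM + 1) by stage, with a symbol for each library and lines through the means. Each pair moved in opposite directions in at least 1 comparison, as XLOC_008917 fell and Rbfox1 rose between 3d and 8w.

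Of the 37 head-to-head pairs whose starts lie within 300 bases, in 8w over E18 hearts limma called 1 lncRNA higher and 9 lower, and 4 partners higher and 20 lower. Both were called in the same direction in 7 pairs and in opposite directions in 0, and the pair difference was called in 9. Over all features 34% of lncRNAs, 65.1% of coding genes and 18% of pairs were called in that comparison. Gm10687 and its partner Mcam, an endothelial and smooth muscle adhesion gene, both fell: Gm10687 had 0.822, 0.870 and 0.432 FPKM at 8w, against 2.19, 1.84 and 1.85 FPKM at E18, and Mcam 15.3, 20.7 and 16.2 FPKM, against 69.2, 66.1 and 68.1 FPKM. On the log2(FPKM + 1) scale Mcam fell by more, and the pair difference was 1.12 ± 0.176 (limma adjusted p = 0.00437). Adding 1 FPKM understates the fall of Gm10687, which stood at 0.432 to 2.19 FPKM, so this difference is overstated. The transcription factor gene Mafg and Gm17586 went apart between 3d and 8w, where Mafg was higher by 0.51 ± 0.157 (limma adjusted p = 0.0174) and Gm17586 lower by 0.86 ± 0.251 on the log2 scale (limma adjusted p = 0.0298). Gm17586 had 0.443, 0.736 and 0.356 FPKM at 8w, against 1.11, 1.80 and 2.44 FPKM at 3d. 5730408K05Rik had 0, 0 and 1.05 FPKM at 8w, against 4.70, 2.92 and 5.44 FPKM at E18, on 13.3 estimated fragments at most. Its log2 difference was -2.04 ± 0.300 (limma adjusted p = 0.00128), while its partner 1810009A15Rik differed by -0.53 ± 0.230 (limma adjusted p = 0.0624).

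Some genes of the heart lists had such transcripts beside them. Of 33 listed cardiac transcription factors 29 were tested, of which 0 were higher and 24 lower in 8w over E18 hearts (17.8% higher and 47.3% lower among all tested coding genes), and 3 of the 33 had a lncRNA of the set. Those 3 genes carried 4 lncRNAs, 0 higher and 3 lower, where 6.74% of all tested lncRNAs were higher and 27.3% lower. The same shares stand behind the counts of the other lists below in 8w over E18 hearts. The clearest was 1010001N08Rik, antisense to Gata6, a regulator of heart development. It had 3.50, 4.83 and 6.65 FPKM at 8w, against 18.7, 16.3 and 19.7 FPKM at E18 and 19.4, 18.4 and 20.6 FPKM at 3d. It was lower at 8w than at E18 by 1.71 ± 0.193 on the log2 scale (limma adjusted p = 0.000344), and Gata6 by 1.49 ± 0.0908 (limma adjusted p = 1.76e-07), and the pair difference was not called (limma adjusted p = 0.551). The other members of the list were Prdm16 with Gm13111 and 5930403L14Rik, and Mef2a with AK162351. In 5930403L14Rik the log2 difference of 8w over E18 was -0.70 ± 0.174 (limma adjusted p = 0.0154), beside -0.90 ± 0.216 in Prdm16 (limma adjusted p = 0.0037).

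Of 27 sarcomere genes 26 were tested, of which 15 were higher and 4 lower in 8w over E18 hearts, and their 5 lncRNAs had 1 higher and 0 lower. The main transcript of C130080G10Rik runs away from Actc1, the cardiac actin gene, and had 57.4, 49.0 and 50.1 FPKM at 8w, against 36.7, 37.2 and 37.6 FPKM at E18. It rose by 0.48 ± 0.111 (limma adjusted p = 0.0117), while Actc1 averaged 5413 FPKM at 8w and 5614 FPKM at E18. A shorter entry of C130080G10Rik with 2.42 to 4.77 FPKM at 3d was called lower in 3d over E18 hearts (limma adjusted p = 0.0499), a call lost in 17 of 22 alternatives. Of 21 calcium and channel genes 20 were tested, with 12 higher and 2 lower, and their 5 lncRNAs lay beside Trdn and Kcnq1. Kcnq1ot1, the imprinted antisense RNA within the potassium channel gene Kcnq1, had 2.64, 3.07 and 2.21 FPKM at 8w, against 7.71, 7.66 and 7.46 FPKM at E18. It fell by 1.25 ± 0.120 (limma adjusted p = 0.00016), beside a fall of Kcnq1 by 0.67 ± 0.114 (limma adjusted p = 0.000384). None of the 26 metabolic genes had a lncRNA of the set.

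Of 22 listed genes 6 (Gnas, Igf2, Igf2r, Kcnq1, Rtl1 and Snrpn) carried 21 of these lncRNAs, of which 0 were higher and 13 lower in 8w over E18 hearts (6.74% higher and 27.3% lower among all tested lncRNAs), with a median log2 difference of -1.14 against -0.32 for all tested lncRNAs. Of 15 tested imprinted coding genes 2 were higher and 12 lower. Several of the 21 are entries of 1 locus, 6 at Igf2r and 5 at Rtl1, and are not independent. 6430411K18Rik, antisense to Rtl1, had 0.606, 0.877 and 0.506 FPKM at 8w, against 5.84, 4.94 and 6.03 FPKM at E18. AK085136, at Gnas, had 7.33, 7.97 and 5.79 FPKM at 8w, against 20.1, 20.2 and 19.9 FPKM at E18. Of the 26 listed cell cycle genes 24 were tested, with 1 higher and 23 lower, and the only lncRNA beside one was AK088937, in Ccnd3, a G1 cyclin gene. It had 3.17, 3.77 and 3.65 FPKM at 3d, against 1.56, 1.47 and 1.47 FPKM at E18 (log2 difference 0.86 ± 0.152, limma adjusted p = 0.0269), a call lost in 9 of 22 alternatives, while Ccnd3 differed by -0.37 ± 0.136 (limma adjusted p = 0.0671).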

How the data were processed

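Total RNA of mouse hearts was extracted with a Qiagen RNeasy kit and made into libraries with a SMARTER kit, per the labels. The submitters' processing notes name cutadapt 1.9.1, HISAT2 2.0.4, Cuffdiff and the builds GRCm38 and mm10, per the labels. FPKM per coding gene and per lncRNA transcript were computed by the authors and deposited beside estimated counts of fragments, per the file headers. No source used here names a strand setting or an annotation release. The position given for a transcript in the table is that of its whole bundle of overlapping loci, so coordinates are printed from GENCODE vM21 (GRCm38) for the 390 of 1177 transcripts whose identifiers match it.

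Tests used limma 3.58.1 (R 4.3.3) with a trend on log2(FPKM + 1) over all 9 libraries in 1 fit with 6 residual degrees of freedom, on 4007 lncRNA transcripts with a mean of at least 0.5 FPKM and 11915 coding genes with at least 1 FPKM. Coding entries of 1 symbol were summed. For 2180 pairs the difference between lncRNA and partner on that scale was tested. Features were called at 0.05 after Benjamini-Hochberg adjustment over each whole table. Fold changes are differences on the log2(FPKM + 1) scale, which understates changes of rare transcripts. Alternatives were other pseudocounts, filters, scalings and fits, edgeR 4.0.16 and DESeq2 1.42.0 on rounded estimated counts, and each library left out. The fit was tested on simulated data with 2-fold changes, which it did not recover, and 4-fold changes, added after that was seen and recovered in part. A change of such a size that was not called is therefore not shown to be absent. Transcripts were named as the up to 4 largest rises and falls per class and comparison with at least 2 FPKM at the higher stage and no overlap of libraries, the 6 largest pair differences, and known lncRNAs, with 1 entry per name; not all of these are described. Head-to-head pairs, AK162351 and others beside listed genes were described after their values were seen. The transcripts and gene lists were chosen with earlier results of these data known.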

Additional observations from a re-analysis of the deposited data

How the results depend on the processing

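Called transcripts in 3d over E18 hearts numbered 43, and 26 with a pseudocount of 0.1, 23 without a filter, 22 with 2 stages in the fit, 21 with edgeR and 19 at 2-fold or more. In 8w over 3d hearts 389 became 252 with edgeR and 138 at 2-fold, and in 8w over E18 hearts 345 became 146 at 2-fold. Called partners in 3d over E18 hearts were 232, and 132 with median centring, 145 with quantile normalization and 6 at 2-fold; at 2-fold they were 124 in 8w over 3d and 173 in 8w over E18 hearts. Pair differences in 3d over E18 hearts were 15, and 1 and 5 with pseudocounts of 0.1 and 0.5, 106 without a filter, 6 and 2 with median centring and quantile normalization, 8 with 2 stages and 3 with a value per lncRNA gene. In 8w over 3d hearts 268 became 177 with a pseudocount of 0.1, 154 with minimums of 1 and 2 FPKM, 406 without a filter and 164 at 2-fold. In 8w over E18 hearts 255 became 160, 144 and 417 under the first 3 of these. The cause was not tested, except that filters change which features enter and a 2-fold minimum removes calls.

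Leaving out each library gave 3 to 42, 294 to 372 and 268 to 376 called transcripts in 3d over E18, 8w over 3d and 8w over E18 hearts, 113 to 221, 436 to 490 and 484 to 577 partners, and 1 to 11, 176 to 246 and 152 to 284 pair differences. Without the 3 libraries with lung markers, an alternative chosen after seeing the data that leaves 1 library at 3d, 10 and 192 transcripts and 5 and 102 pair differences were called in 3d over E18 and 8w over 3d hearts. Leaving out transcripts under 10 fragments, also chosen afterwards, gave 36, 346 and 298. Correlations between libraries of the same replicate number ran from -0.059 to 0.0675. They show no pairing by number, but with few libraries and mostly rare transcripts they cannot exclude one. With a replicate block 6 transcripts and 1 pair difference were called in 3d over E18 hearts.

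Of 2571 recalculated values for 119 named results 2191 kept direction and call, 350 lost the call, 7 gained one and 23 changed sign, all of the last uncalled. In 3d over E18 hearts Airn (-0.04) was 0.0795 with quantile normalization, 0.0102 with edgeR, 0.31 without the lung-marker libraries and -0.22 to 0.053 with each library left out. In the same comparison Snhg1 (0.12), Gas5 (0.34), Snhg6 (0.28) and Dleu2 (0.12) were -0.12, -0.087, -0.48 and -0.083 without the lung-marker libraries, Dleu2 ran -0.078 to 0.51 and Snhg6 -0.029 to 0.67 with each library left out. In 8w over E18 hearts Snhg10 (-0.17) was 0.16 and 0.0851 with median centring and quantile normalization, 0.25 with edgeR, 0.27 with DESeq2, 0.14 without the lung-marker libraries and -0.39 to 0.14 with each left out, and Snhg6 (-0.41) was 0.20 with edgeR and 0.21 with DESeq2.

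Depth limits the rarest transcripts: the median standard error was 0.327 under 10 fragments a library and 0.152 at 100 or more.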

Other observations

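AK141672, antisense to Gm10222, had 281, 8.03 and 5.07 FPKM in the 8w libraries, against 4.19, 7.27 and 6.56 FPKM in the E18 libraries and 4.30, 14.4 and 15.8 FPKM in the 3d libraries, so that 1 library set its 8w mean. AK019367, in an intron of Slc3a1, ranged from 82.2 to 252.8 FPKM at 8w and from 60.5 to 196.2 FPKM at 3d, within which the E18 libraries at 121.6 to 160.5 FPKM fall. Gm23833, a short bidirectional transcript beside Igf2r, stood at 28.5 ± 8.09 FPKM at 8w, against 112.0 ± 5.46 FPKM at E18 and 69.1 ± 4.03 FPKM at 3d (SD, n = 3 each).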
